A study of Mus musculus with 17 samples.

Results

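Of the 514959 pairs of NlaIII fragments listed as contacts of the alpha-globin enhancer R2 by Tri-C, 7190 held at least 1 fragment whose midpoint lay at chromosome 11, 32135500 to 32140500 (mouse build mm9). This stretch is the place of the CTCF sites -38 and -39, called the -38/-39 window here, and the pairs were chosen by that position alone, not by their counts. In 256 of the 7190 pairs both fragments lay in the window. Tri-C is a chromosome conformation capture method that enriches ligated fragments around a chosen viewpoint and keeps reads in which the viewpoint is joined to a pair of other fragments, so that each count reports R2, the window and another fragment together on 1 allele. It was run on primary erythroid cells that carry Ter-119, a surface marker of that lineage, taken out of spleens of C57BL/6 females given phenylhydrazine, which provokes anaemia, in 3 doses of 40 mg/g body weight 12 hours apart as the labels write them, with harvest after 5 days. These were set against embryonic stem (ES) cells of the line E14, of strain 129/Ola, for which no treatment applies. Each cell type had 3 biological replicates, spread over 10 erythroid and 7 ES libraries, and the libraries of a replicate were summed. The labels do not say whether the replicates were separate animals or cultures, so p-values measure the spread between these samples. Strain and cell type differ together and cannot be told apart, and no expression was measured, so the labelled cell types could not be checked against markers.

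CTCF is a zinc-finger protein that binds insulator sites and halts the cohesin complex, which is held to form chromatin loops by extruding them, so that convergent CTCF sites often mark the borders of self-interacting domains. In the mouse the alpha-globin genes lie in such a domain: the embryonic gene Hba-x and both adult genes, Hba-a1 and Hba-a2, are switched on in red cell precursors by an upstream cluster of enhancers, R1, R2, R3, Rm and R4. The -38/-39 sites flank that cluster on its upstream side, and the sites +44 and +48 lie beyond the adult genes, all named by their distance in kb from Hba-x. In mouse erythroid cells, removal of the -38 and -39 sites is known to let the enhancers act on genes further upstream.

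The window itself cannot be shown as sequence, because no genome of the files' build was given. The partner class whose share of the window's pairs was called different between the cell types is that of the adult genes, and the reason to show its promoters is that the copies are almost the same. Below are the 250 bases before the annotated start of each adult gene, from RefSeq on build GRCm38.p6, plus strand, 5′ to 3′, at chr11:32283422-32283671 for Hba-a1 and chr11:32296242-32296491 for Hba-a2. Capitals mark the 3 bases outside the run of 247 bases that both share.
Hba-a1: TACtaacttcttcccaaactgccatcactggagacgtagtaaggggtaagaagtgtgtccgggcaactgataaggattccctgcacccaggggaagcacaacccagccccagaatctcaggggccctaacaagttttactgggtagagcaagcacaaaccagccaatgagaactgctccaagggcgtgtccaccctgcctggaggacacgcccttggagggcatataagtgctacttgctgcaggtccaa
Hba-a2: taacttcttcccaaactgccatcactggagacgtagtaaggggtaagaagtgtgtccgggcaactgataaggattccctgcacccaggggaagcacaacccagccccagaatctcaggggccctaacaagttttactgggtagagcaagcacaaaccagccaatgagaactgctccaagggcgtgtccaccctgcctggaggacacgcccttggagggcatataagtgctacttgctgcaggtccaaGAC
Neither stretch holds CATG, the site that NlaIII cuts, which was found in 54.0% of the 32851 promoter stretches of this length in the table (CATG reads the same on both strands). Reads from such copies may be split or dropped by an aligner, and their handling was not given in the sources used here. The values of single adult genes below are therefore uncertain, while those of the whole adult gene class are less open to a swap between the copies.

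The R2 tables held 139337 to 469501 counts per replicate, and the window's pairs took 2985, 2707 and 6506 counts in erythroid replicates 1, 2 and 3, against 13994, 4901 and 7348 in ES replicates 1, 2 and 3. Some libraries stood apart. In the 3 erythroid libraries that are technical replicate 1, a distinct window pair was counted 1.66 to 1.99 times on average, against 4.14 to 5.03 times in the other erythroid libraries and 4.24 to 5.78 times in the ES libraries. ES replicate 1 technical replicate 3 differed from the other ES libraries in its contacts with the +44 and +48 sites, given below. The adult gene share is given with and without the erythroid technical replicates 1, the +44/+48 share with and without that ES library, and the +44/+48 levels with and without ES replicate 1 as a whole.

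**Figure D1:**
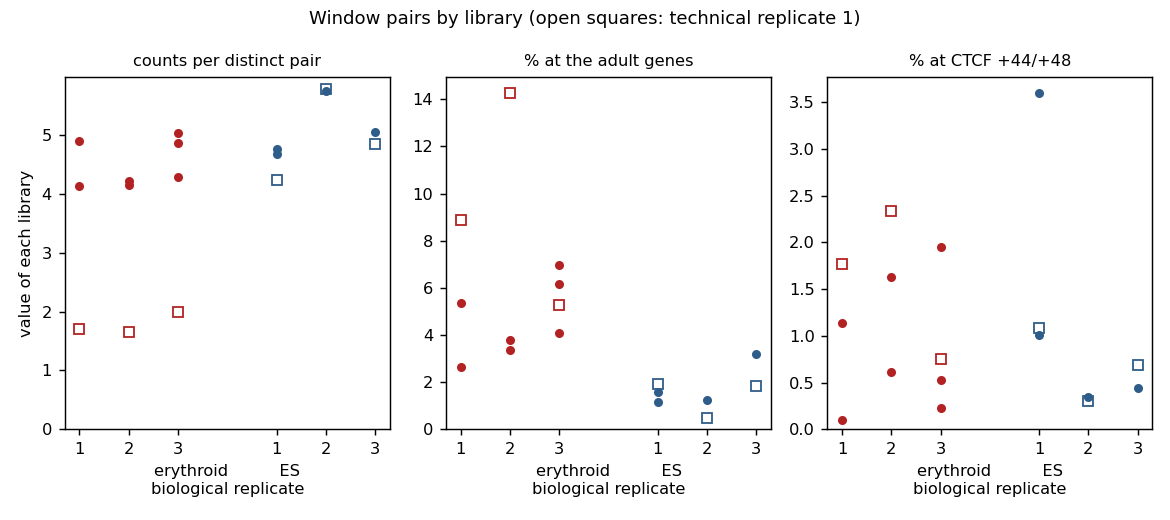
Values of the window's pairs in each of the 17 libraries, by biological replicate of erythroid cells (left, red) and ES cells (right, blue): counts per distinct fragment pair, and the percentage of chromosome 11 pairs whose other fragment lay at the adult genes or at CTCF +44/+48. Open squares are technical replicate 1, which in the erythroid cells shows 1.66 to 1.99 counts per distinct pair, and the highest +44/+48 value, 3.60%, is ES replicate 1 technical replicate 3.

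R2 met the -38/-39 window in a smaller part of its recorded pairs in erythroid cells than in ES cells, and this held for the surroundings of the window as much as for the window. Per 1000 counts of the R2 table, the window's pairs numbered 11.2, 9.40 and 13.9 in erythroid replicates, against 32.4, 35.2 and 34.4 in ES replicates. The groups did not overlap, and the highest erythroid value lay well below the lowest ES value. The difference was -1.56 on the log2 scale (edgeR quasi-likelihood test, SE 0.22, adjusted p = 5.13e-11, over all 5 kb bins within 150 kb of R2). Of the 59 bins tested, 88.1% were called lower in erythroid cells and the median change was -2.38, so the window fell by less than the median bin. The direction depended on the scale: with the total of chromosome 11 pairs as library size the change was -0.48 (adjusted p = 0.000538), with TMM factors it was 0.24 (adjusted p = 0.122), and with DESeq2's size factors, under which 35.6% of bins were called higher in erythroid cells, it was 0.59 (adjusted p = 0.00379). The median over all bins was -1.32, -0.60 and -0.26 under these scales, and the window lay above it each time.

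The window held no peak of its own in the R2 profile. The next 5 kb upstream averaged 8.93 ± 3.58 pairs per 1000 in erythroid cells and 30.6 ± 3.72 in ES cells (SD, n = 3 each), and the next 5 kb downstream, towards R2, averaged 16.7 ± 2.37 in erythroid cells and 46.4 ± 3.94 in ES cells. The profile thus climbed through the window towards R2 in both cell types. The sharper step lay 1 bin further out: the second 5 kb upstream averaged 3.69 ± 1.24 in erythroid cells and 10.97 ± 1.22 in ES cells. On the log2 scale the next 5 kb upstream exceeded that bin by 1.25 ± 0.11 in erythroid cells and 1.48 ± 0.05 in ES cells. The step was smaller in each erythroid replicate than in any ES replicate, with a difference of -0.23 and the smallest p that an exact two-sided permutation test of 3 against 3 can give, 0.1. The window exceeded that bin by 1.68 ± 0.20 in erythroid cells and 1.64 ± 0.19 in ES cells, values that overlap (exact two-sided permutation p = 1.0, n = 3 each).

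**Figure D2:**
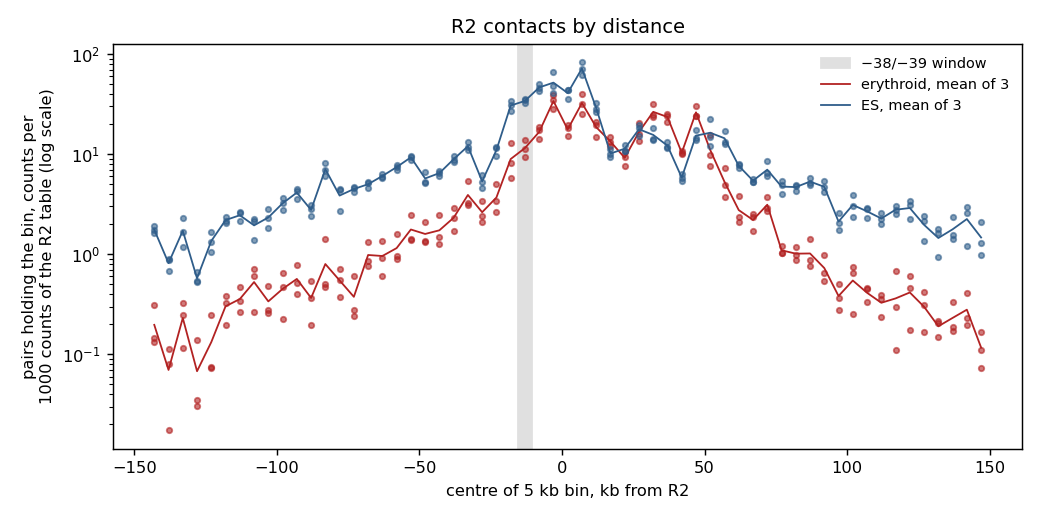
Counts of R2 pairs that hold each 5 kb bin, per 1000 counts of the R2 table (log scale), against the distance of the bin's centre from R2 in kb, with lines for the mean and points for the 3 replicates of erythroid and ES cells. In the shaded -38/-39 window the erythroid replicates sit at 9.40 to 13.9 and the ES replicates at 32.4 to 35.2, on a slope that climbs towards R2 in both.

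Within the window the counts were spread over 31 fragments rather than held by 1. The 5 fragments with the highest totals all lay in the part of the window with the higher coordinates, which carried 51.3% ± 4.07 of the window's fragment counts in erythroid cells and 54.5% ± 2.86 in ES cells on 1594 of the bases. The fragment with the most counts, at 32139010 to 32139115, held 236, 277 and 470 counts in erythroid replicates, against 1249, 678 and 785 in ES replicates. That was 6.47% ± 1.34 of the window's fragment counts in erythroid cells and 8.25% ± 1.14 in ES cells, and these shares were not tested against each other. The others were at 32139702 to 32139944, 32139491 to 32139701, 32138889 to 32138976 and 32138977 to 32139009, with 3012, 2646, 2140 and 2040 counts over all replicates. The fragment inferred to be the alpha CTCF viewpoint, at 32137188 to 32137324, ranked 16 in the R2 table with 3.49% ± 1.07 in erythroid cells and 2.50% ± 0.36 in ES cells. At the window's borders, the last fragment left out at the lower end held 416 counts in erythroid cells and 1203 in ES cells, and the first one kept held 238 in erythroid cells and 552 in ES cells. At the upper end the last fragment kept held 495 in erythroid cells and 919 in ES cells, and the first one left out held 291 in erythroid cells and 529 in ES cells.

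The other fragment of the window's pairs was most often another fragment of the window itself. Of the window's pairs with both fragments on chromosome 11, such pairs made up 34.9%, 34.2% and 40.0% in erythroid replicates, against 29.3%, 51.6% and 30.6% in ES replicates. ES replicate 2 lay highest and the groups overlapped, with a log2 change of -0.03 (edgeR, SE 0.26, adjusted p = 0.959). With every distinct pair counted once per library the change turned to 0.64 and was called (edgeR, adjusted p = 0.0252). Fragments that abut on the genome gave 67.1% ± 7.28 of these counts in erythroid cells and 73.3% ± 2.72 in ES cells (exact two-sided permutation p = 0.2, n = 3 each); whether abutting fragments had been cut and religated or never cut was not tested.

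Among the window's chromosome 11 pairs, those within the window included, the other fragment lay at the adult genes in a larger share in erythroid cells than in ES cells. This was the only class of 12 whose share was called. The class spans 32182001 to 32199000 and holds Hba-a1 and Hba-a2. It took 5.11%, 5.60% and 5.71% of the window's chromosome 11 pairs in erythroid replicates, against 1.53%, 0.864% and 2.51% in ES replicates. Every erythroid replicate lay above every ES replicate, at more than double the highest of them. The share rose by 1.74 on the log2 scale (edgeR, SE 0.36, adjusted p = 6.45e-05, with the bin's chromosome 11 pairs as offset and all 5 kb bins as first contacts). Of the 637 combinations of a 5 kb bin and a class tested, 3.30% were called higher in erythroid cells. The median change was 0.09 over the window's 12 classes and -0.12 over all 637 combinations.

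The counts behind this share were 129, 127 and 327 in erythroid replicates, against 195, 40 and 163 in ES replicates, on 229 distinct pairs in erythroid and 103 in ES cells. Of these distinct pairs 15 were seen in both. By library the share ran between 2.62% and 14.3% with a median of 5.31% over the 10 erythroid libraries, and between 0.478% and 3.21% with a median of 1.58% over the 7 ES libraries, so single libraries of the groups did overlap. The highest erythroid libraries were technical replicates 1 of replicates 2 and 1. Without the erythroid technical replicates 1 the log2 change was 1.44 (adjusted p = 0.009), and with every distinct pair counted once per library it was 1.95 (adjusted p = 2.80e-08).

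Inside the adult gene class the groups were apart at 3 of its 4 parts. Over all 637 combinations of a 5 kb bin and a class, 23.7% had groups without overlap. The parts make up the class whose share was called, so they are no further support for its larger share. The 3 kb around Hba-a1 held 1.34% ± 0.155 of the window's chromosome 11 pairs in erythroid and 0.340% ± 0.314 in ES cells. The stretch between both genes held 2.73% ± 0.541 in erythroid cells and 0.701% ± 0.590 in ES cells, and the 3 kb around Hba-a2 held 1.28% ± 0.254 in erythroid cells and 0.530% ± 0.158 in ES cells. In each of these 3 the erythroid replicates lay above the ES replicates. The rest of the class, with 14 counts in erythroid cells and 14 in ES cells, held 0.118% ± 0.105 in erythroid cells and 0.0617% ± 0.0813 in ES cells, and the groups overlapped there. The parts were not tested one by one.

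**Figure D3:**
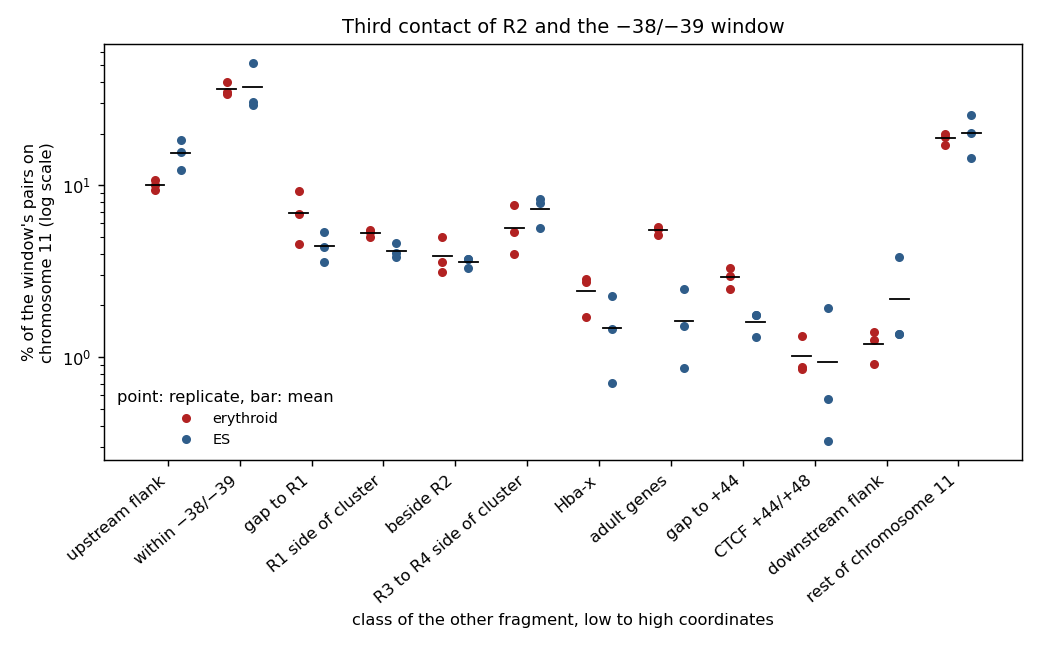
Percentage of the window's chromosome 11 pairs (log scale) whose other fragment lay in each of 12 classes, ordered along the chromosome, with erythroid replicates to the left of ES replicates, points for replicates and bars for means. The adult genes, at 5.11% to 5.71% in erythroid cells and 0.864% to 2.51% in ES cells, are the class with the widest gap between the groups.

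Neither side of the enhancer cluster was called different in share between the cell types. The R1 side, 32144501 to 32148923, held 5.51%, 5.02% and 5.36% in erythroid replicates, against 3.85%, 4.60% and 4.03% in ES replicates. The groups did not overlap, but the change of 0.35 was not called (edgeR, SE 0.31, adjusted p = 0.611). The side that holds R3, Rm and R4, 32153112 to 32170500, held 7.73%, 3.97% and 5.34% in erythroid replicates, against 7.85%, 5.66% and 8.35% in ES replicates, with a change of -0.36 (edgeR, SE 0.29, adjusted p = 0.579). Here the groups overlapped. Both sides together, which changed in opposite directions, came to 10.97% ± 2.13 in erythroid cells and 11.4% ± 1.09 in ES cells (exact two-sided permutation p = 0.8, n = 3 each).

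The downstream CTCF sites took a small share. The class from 32219501 to 32226500, around +44 and +48, held 0.872%, 1.32% and 0.855% of the window's chromosome 11 pairs in erythroid replicates, against 1.94%, 0.324% and 0.569% in ES replicates. ES replicate 1 lay highest and the other ES replicates lowest, and the change was 0.07 (edgeR, SE 0.58, adjusted p = 0.958). The counts were few: 22, 30 and 49 in erythroid replicates, against 247, 15 and 37 in ES replicates. In ES replicate 1, 161 of its counts came from technical replicate 3 alone, on 12 distinct pairs. Without that library the share was 1.02% ± 0.265 in erythroid cells and 0.644% ± 0.363 in ES cells, with groups that still overlapped (exact two-sided permutation p = 0.3, n = 3 each). Without ES replicate 1 as a whole, the fitted change was 1.17.

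The +44/+48 share of the window was also set against that of its neighbours on either side. The log2 ratio of the window's +44/+48 share to that of the next 5 kb upstream was 0.18, -0.32 and 0.40 in erythroid replicates, against 0.96, -0.14 and 0.02 in ES replicates. Values on both sides of 0 occurred in each group, and the difference between them was -0.19 (exact two-sided permutation p = 0.7, n = 3 each). Leaving out ES replicate 1 technical replicate 3 turned it to 0.16. Against the next 5 kb downstream, the ratio was -0.12, 0.54 and 1.37 in erythroid replicates, against 1.35, 1.21 and 0.90 in ES replicates. The ES values were all above 0 there and 1 erythroid value was not, and the groups overlapped (exact two-sided permutation p = 0.4, n = 3 each).

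The remaining classes did not pass the test on shares. The upstream flank, the 100 kb before the window, held 9.39%, 10.1% and 10.8% in erythroid replicates, against 18.3%, 12.2% and 15.5% in ES replicates. Every erythroid replicate lay below every ES replicate, with a change of -0.60 (edgeR, SE 0.27, adjusted p = 0.228). It was called without ES replicate 2, at -0.74 (adjusted p = 3.72e-05), and with every distinct pair counted once per library, at -0.62 (adjusted p = 0.00855). The 20.5 kb between the adult genes and +44 held 2.97%, 3.31% and 2.50% in erythroid replicates, against 1.76%, 1.32% and 1.75% in ES replicates. These groups did not overlap either, and the change was 0.85 (edgeR, SE 0.40, adjusted p = 0.245). The class of Hba-x averaged 2.43% ± 0.635 in erythroid cells and 1.48% ± 0.776 in ES cells, with a change of 0.71 (adjusted p = 0.388, edgeR). The downstream flank averaged 1.19% ± 0.256 in erythroid cells and 2.19% ± 1.42 in ES cells, with a change of -0.89 (edgeR, SE 0.41, adjusted p = 0.240). It was called with every distinct pair counted once per library, at -1.13 (adjusted p = 0.00755), and without ES replicate 2, at -1.13 (adjusted p = 0.0357), while without ES replicate 1 it was -0.19 (adjusted p = 0.933). The gap between the window and R1 averaged 6.88% ± 2.32 in erythroid cells and 4.45% ± 0.897 in ES cells, the stretch beside R2 3.89% ± 0.975 in erythroid cells and 3.59% ± 0.247 in ES cells, and the rest of chromosome 11 18.7% ± 1.43 in erythroid cells and 20.2% ± 5.64 in ES cells.

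The larger adult gene share was shared with the bins on either side of the window, though not with every bin further upstream. In the next 5 kb upstream the adult genes took 4.93% ± 2.05 of chromosome 11 pairs in erythroid and 1.14% ± 0.375 in ES cells, with a change of 2.08 (edgeR, SE 0.44, adjusted p = 6.45e-05). In the next 5 kb downstream they took 7.83% ± 0.347 in erythroid cells and 2.08% ± 0.215 in ES cells, with a change of 1.91 (edgeR, SE 0.32, adjusted p = 1.48e-07). In the second 5 kb upstream they took 3.89% ± 2.15 in erythroid cells and 3.06% ± 1.02 in ES cells. The groups overlapped there and the change of 0.35 was not called (edgeR, SE 0.55, adjusted p = 0.799). Further out, the bins at -28.0 and -33.0 kb from R2 changed by 2.91 and 1.73 (edgeR, adjusted p = 0.00193 and 0.168). The window's log2 ratio to the upstream neighbour differed between the cell types by -0.21 (exact two-sided permutation p = 0.8), and its ratio to the downstream neighbour by -0.04 (p = 0.9, the same test). Of 49 first contacts tested with the adult genes outside the genes' own bins, 13 rose, the window among them, and 0 fell at the adjusted threshold of 0.05 in edgeR, with changes of 0.95 to 2.97 and a median of 1.47 over all 49. Of the 13, 10 changed by more than the window.

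**Figure D4:**
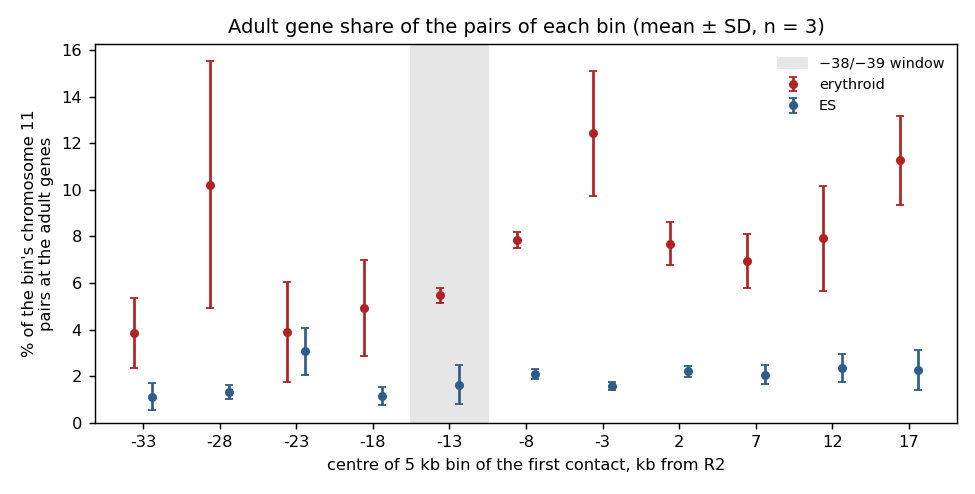
Mean and SD over 3 replicates of the percentage of chromosome 11 pairs whose other fragment lay at the adult genes, for each 5 kb bin of the first contact around the window (distance of the bin's centre from R2 in kb), erythroid left of ES. The window, shaded, averages 5.47% in erythroid cells and 1.63% in ES cells, and the bins on either side show the same order of the groups.

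As levels per 1000 counts of the R2 table, 11 of the window's 13 partner classes, the one off chromosome 11 included, fell in erythroid cells and 0 rose, where 67.0% of the 91 pairs of classes tested were called lower (edgeR). The median change was -1.53 over the 13 classes and -1.09 over the 91. The window's pairs with the upstream flank numbered 0.893, 0.795 and 1.32 per 1000 in erythroid replicates, against 5.40, 4.06 and 4.73 in ES replicates. All erythroid values were far below the ES values, with a log2 change of -2.24 (edgeR, SE 0.28, adjusted p = 2.66e-06). The pairs with the R3, Rm and R4 side numbered 0.734, 0.313 and 0.652 in erythroid replicates, against 2.32, 1.88 and 2.55 in ES replicates, also without overlap, with a change of -1.99 (edgeR, SE 0.31, adjusted p = 2.35e-05). The R1 side changed by -1.30 and the downstream flank by -2.51 (edgeR, adjusted p = 0.000638 and 0.000158). The +44/+48 class changed by -1.60 (edgeR, SE 0.63, adjusted p = 0.0307), a call that rested on few counts: without ES replicate 1, which holds the library that stood apart, the change was -0.55 (adjusted p = 0.479). It was not called either without erythroid replicate 1 or 2 (adjusted p = 0.0842 and 0.0992), or in the 3 kb window (adjusted p = 0.0785).

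The adult genes and Hba-x were the classes without a call. Pairs of the adult genes with the window numbered 0.486, 0.441 and 0.697 per 1000 in erythroid replicates, against 0.452, 0.287 and 0.764 in ES replicates. The groups overlapped and the change was 0.11 (edgeR, SE 0.37, adjusted p = 0.787). For Hba-x the change was -0.91 (edgeR, SE 0.45, adjusted p = 0.0757). Under the other 3 scales 5 classes were called each time and they were the same. The adult genes rose, by 1.15 to 1.38. The upstream flank, the R3, Rm and R4 side, the downstream flank and the rest of chromosome 11 fell, 4 of the 11 falls. Of all 91 pairs of classes, 48 were called with DESeq2, 49 with TMM and 45 with chromosome 11 totals. Of these, 23, 26 and 21 rose, so calls were no more frequent among the window's classes than over all pairs. The fall of the upstream flank was -1.19 with chromosome 11 totals, -1.01 with TMM and -1.16 with DESeq2, and that of the R3, Rm and R4 side was -0.94, -0.77 and -0.92. The 7 other falls were not called under these scales, and those of the gap to R1, the gap to +44 and the class off chromosome 11 turned in sign.

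At single elements, each a 3 kb window, 2 of 9 fell and 0 rose (edgeR), where 4.65% of 43 pairs of elements were called lower. That share is made up of these 2 pairs of the window, and no pair of other elements was called lower. The median change was -0.75 over the 9 and 0.03 over the 43. Pairs of the window with R3 numbered 0.241, 0.125 and 0.136 per 1000 in erythroid replicates, against 0.549, 0.639 and 0.731 in ES replicates. No values overlapped, and the change was -1.93 (edgeR, SE 0.36, adjusted p = 0.00178). It was called with TMM and DESeq2 as well, but not with chromosome 11 totals. Pairs with R1 numbered 0.373, 0.316 and 0.486 in erythroid replicates, against 0.828, 1.15 and 0.619 in ES replicates, a change of -1.14 (edgeR, SE 0.33, adjusted p = 0.0269). The groups were apart there too. R1 was called with TMM, at -1.18 (adjusted p = 0.0461), but not with DESeq2, at -1.08 (adjusted p = 0.0569), and with chromosome 11 totals its change was -0.047 (edgeR, adjusted p = 0.892). Only 1 element was called without erythroid replicate 2, and 1 without ES replicate 1. At Hba-a1 the pairs averaged 0.134 ± 0.0456 in erythroid cells and 0.104 ± 0.0952 in ES cells, and at Hba-a2 0.130 ± 0.0529 in erythroid cells and 0.167 ± 0.0607 in ES cells. Their changes were 0.36 and -0.34, neither called (adjusted p = 0.828 and 0.794, edgeR). At CTCF +44 the pairs averaged 0.0529 ± 0.0132 in erythroid cells and 0.0732 ± 0.0481 in ES cells, and at CTCF +48 0.0288 ± 0.0153 in erythroid cells and 0.143 ± 0.0863 in ES cells. The change was -0.50 at +44 (adjusted p = 0.827) and -2.34 at +48 (adjusted p = 0.0900, edgeR), the last without overlap of the groups. Without ES replicate 1 the change at +44 turned to 0.19, and that at +48 was -1.73 (adjusted p = 0.385). The fall at +48 was called without ES replicate 2 or 3 (adjusted p = 0.0431 and 0.0412) and with pairs counted once, at -1.90 (adjusted p = 0.00949). Hba-x, Rm and R4 changed by -0.84, -0.75 and 0.16 (adjusted p = 0.481, 0.564 and 0.981, edgeR).

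Along the chromosome, 23 of the 47 tested 5 kb bins that pair with the window fell and 0 rose, where 32.4% of the 747 bin pairs tested were called lower (edgeR). The minimum of 30 counts was summed over both cell types, so a bin with few erythroid counts could enter through its ES counts alone. The same minimum applied to all 747 bin pairs. Upstream of the window 15 of 19 bins fell, with a median change of -2.47. Most of these bins held under 30 erythroid counts and entered in this way, so their count of falls and median favour falls. In the 6 bins from the window's downstream side to the end of the enhancer cluster 4 fell, with a median of -1.63. From Hba-x to the gap before +44, 1 of 10 bins fell, with a median of -0.45 and changes between -2.17 and 0.61. Beyond, from +44 on, 2 of 11 fell, with a median of -2.03. Of these, only the bin at 32220501 to 32225500 held 30 or more erythroid counts, so this median favours falls as well. The bins of the adult genes were among those nearest to 0, but their contrast with the upstream bins and those from +44 on is partly set by the minimum. Over all 47 bins the median was -2.03, against -2.06 over all 747; it was the same with the 2 bins that had 0 erythroid counts set to their floor of 3 counts over the 3 replicates. Under the other 3 scales 2 to 4 of the bins were called, where 114 to 124 of the 747 bin pairs were called and 50 to 58 rose. Of these, 1 bin, named after its values were seen, rose each time: 32185501 to 32190500, between the adult genes, with 52, 54 and 105 counts in erythroid replicates, against 86, 2 and 37 in ES replicates, and changes of 1.64 with chromosome 11 totals, 1.98 with TMM and 2.00 with DESeq2, against 0.61 per table total (adjusted p = 0.458, edgeR). The 23 falls came down to 12 without erythroid replicate 1, 11 without erythroid replicate 2, 10 without ES replicate 1 and 12 without ES replicate 3.

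By the naming rule, 5 bins are given, all of them lower in erythroid cells. Those upstream of the window each held under 30 erythroid counts and passed the minimum only through their ES counts, so their choice favours falls. The bin at -98.0 kb from R2 (32050501 to 32055500) held 0, 0 and 3 counts in erythroid replicates, against 29, 7 and 15 in ES replicates, a ratio of summed rates of 0.0451. The 95% exact interval of that ratio, 0.00900 to 0.139, leaves out the spread between replicates and treats every count as independent. It may be too narrow even for counting error. A distinct window pair was counted 4.24 to 5.78 times on average in the ES libraries, and such repeat counts cannot be taken as independent. The bin was also named for its large change. The bin at -63.0 kb (32085501 to 32090500) held 2, 2 and 11 counts in erythroid replicates, against 68, 20 and 22 in ES replicates, and fell by 3.32 on the log2 scale (edgeR, SE 1.08, adjusted p = 0.0105). The bin at -48.0 kb (32100501 to 32105500) held 12, 3 and 6 counts in erythroid replicates, against 110, 24 and 37 in ES replicates, and fell by 3.15 (edgeR, SE 0.86, adjusted p = 0.00181). These upstream bins were thin in erythroid cells in every replicate. The bin at -68.0 kb (32080501 to 32085500) held 4, 3 and 13 counts in erythroid replicates, against 50, 22 and 35 in ES replicates, and fell by 2.98 (edgeR, SE 1.00, adjusted p = 0.0136). The last lay on the other side of R2, at 6.98 kb (32155501 to 32160500). Most of the 3 kb R3 element (32154501 to 32157500) lies in this bin, so its fall is not separate from that of R3 above. The bin held 61, 37 and 93 counts in erythroid replicates, against 385, 128 and 294 in ES replicates, and fell by 2.52 (edgeR, SE 0.49, adjusted p = 7.82e-06). This bin stayed called with chromosome 11 totals, at -1.44, and with DESeq2, at -1.24 (adjusted p = 0.0256), but not with TMM, at -1.19 (edgeR, adjusted p = 0.0513). Of the 23 falls, 0 were called under all 3 other scales.

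**Figure D5:**
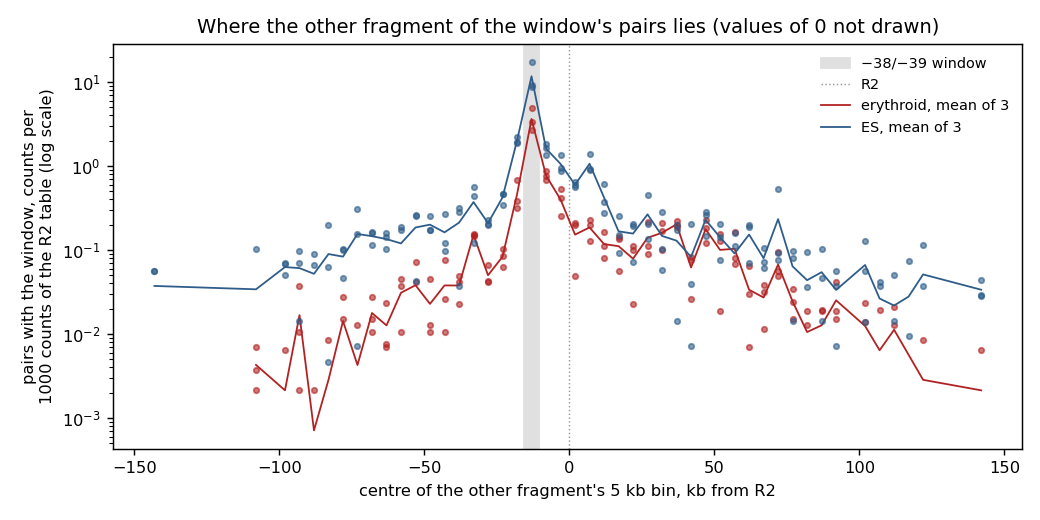
Counts of R2 pairs that join the window with each tested 5 kb bin, per 1000 counts of the R2 table (log scale), against the distance of the other bin's centre from R2 in kb; lines are means of erythroid and ES cells and points are replicates, with values of 0 not drawn and lines running over untested bins. The lines meet over the adult genes, at 32 to 47 kb, and lie furthest apart upstream of the shaded window.

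The same meeting was recorded from the other end in the table of the alpha CTCF viewpoint, whose gap of unlisted fragments lay inside the window (32136092 to 32138888). That table is no independent sample: it comes from the same libraries, and some reads may be counted in both tables. The fragments inferred to be both viewpoints were chosen for the largest share of equal values in the tables. For them 23.3% of 129 compared values were equal, against 9.28% for the next candidates. As the ground of the choice, this share does not measure how many reads are counted in both. Among pairs of that viewpoint with the stretch beside R2 (32148924 to 32153111), the adult genes took 9.63%, 5.70% and 5.48% of chromosome 11 pairs in erythroid replicates, against 2.33%, 3.22% and 1.53% in ES replicates. The groups did not overlap, as from R2. The change was 1.55 (edgeR, SE 0.37, adjusted p = 0.000672), and without erythroid replicate 1 it was 1.24 and not called (adjusted p = 0.0554). The stretch between the adult genes and +44 took 3.96%, 6.38% and 4.45% in erythroid replicates, against 1.74%, 1.04% and 2.64% in ES replicates, again without overlap, with a change of 1.44 (edgeR, SE 0.43, adjusted p = 0.00795). Without erythroid replicate 2 it was 1.22 and not called (adjusted p = 0.115). These 2 of 12 classes rose, where 9.72% of 144 combinations of classes were called higher.

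As levels per 1000 counts of the alpha CTCF table, 7 of the 13 classes paired with the stretch beside R2 fell and 0 rose, where 18.7% of 91 pairs of classes were called lower (edgeR). The median change was -1.31 over the 13 and 0.02 over the 91. All 7 stayed lower with chromosome 11 totals, TMM and DESeq2 as scale, unlike the level from R2. Under these scales 20, 18 and 19 of the 91 pairs of classes were called lower. The upstream flank numbered 1.28, 0.990 and 1.56 per 1000 in erythroid replicates, against 4.17, 3.02 and 3.18 in ES replicates, without overlap, and fell by 1.44 on the log2 scale (edgeR, SE 0.27, adjusted p = 0.00293). The R1 side fell by 1.67 and the R3, Rm and R4 side by 1.31 (adjusted p = 0.00608 and 0.00847, edgeR). The adult genes numbered 0.778, 0.320 and 0.637 in erythroid replicates, against 0.470, 0.693 and 0.250 in ES replicates. They overlapped and their change of 0.31 was not called (adjusted p = 0.666, edgeR), and neither was that of the +44/+48 class, at -0.12 (adjusted p = 0.927, edgeR).

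Pairs whose other fragment was assigned off chromosome 11 made up 15.4%, 16.2% and 11.9% of the window's counts in erythroid replicates, against 8.78%, 5.49% and 11.5% in ES replicates. The groups did not overlap, with a gap of under 1 point between the nearest values, and a difference of 5.93 points gave the smallest p that an exact two-sided permutation test of 3 against 3 allows, 0.1. In the rest of the R2 table, pairs with either fragment off chromosome 11 made up 70.1%, 74.6% and 59.0% in erythroid replicates, against 37.7%, 23.7% and 34.0% in ES replicates. These shares are not alike, because a window pair holds a chromosome 11 fragment by choice, while both fragments of another pair could lie off it. The lower share of the window's pairs is therefore partly set by that choice. The order of the cell types was the same in both. The share of the table off chromosome 11 moves with the level per 1000 counts of the table, and its part in the lower erythroid level was not tested.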

How the data were processed

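Members and lists were chosen with earlier results of these data known. The deposited values are whole-number counts, which per the file headers the authors gave for each fragment pair in each of 17 libraries; per the submitters' processing notes Trim Galore, Bowtie and build mm9 were used, with no version given, and the filters on reads are not given in the sources used here. Technical replicates were summed to 3 biological replicates per cell type. Counts were made without molecular identifiers, so repeat counts of a pair are not independent. Intervals and floors leave out the spread between replicates and may understate the counting error. Of the 4 tables, the 2 of the alpha locus were used. Fragment coordinates off chromosome 11 followed the fragment borders of chromosome 11, so only their share was used.

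Pairs were counted per 5 kb bin within 150 kb of R2, per partner class and per 3 kb element, with a minimum of 30 counts over all replicates, and fragments within 1 kb of the R2 gap (32149923 to 32152111) form the class beside R2. Differences, erythroid minus ES, were tested with edgeR 4.0.16 (quasi-likelihood, R 4.3.3) across the whole table, with the table total as library size, and called at a Benjamini-Hochberg adjusted p under 0.05; the SE was taken as the change over the root of F. Shares used the chromosome 11 pairs of the first contact as offset. Alternatives were DESeq2 1.42.0, TMM factors, chromosome 11 totals, no minimum beyond 1 count, a replicate block, pairs counted once per library, a 3 kb window, libraries or replicates left out, and for shares all pairs as denominator. The shares in the alpha CTCF table, the adult gene ratios to neighbours and the run without 1 ES library were added after the data were seen. Single values were compared by exact permutation. The named bins are up to 5 per direction with the largest change among calls without overlap of replicates; all classes and elements and the 5 window fragments with the highest counts are given. Same-numbered replicates did not deviate together (correlations -0.008, -0.026 and -0.118 over the bins), so the numbers do not pair samples. Counting, exact tests and figures used Python 3.11.15, scipy 1.17.1, pandas 2.3.3, numpy 2.4.6 and matplotlib 3.10.9. The code was tested on simulated data.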

Additional observations from a re-analysis of the deposited data

Results flagged for a closer look

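In ES replicate 1 technical replicate 3, 3.60% of the window's chromosome 11 pairs had their other fragment at CTCF +44/+48, set apart from the other 6 ES libraries by a gap large for the range of the 7. The others lay between 0.304% and 1.08%. Chance sets such a flag in about 1 in 20 groups. Several measures were screened in both cell types and this was the only flag, so a flag by chance among them would not be rare. The 161 counts came from 12 distinct pairs, the largest with 28 counts.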

How the results depend on the processing

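The larger adult gene share of the window's pairs kept its direction and its call under all 12 alternatives, with log2 changes of 1.44 to 2.18 and adjusted p of 2.80e-08 to 0.009. The share off chromosome 11 stayed higher in erythroid cells under each alternative run.

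The level of the window turned with the scale, at 0.59 (DESeq2) and 0.24 (TMM). Window classes called were 5 with DESeq2, TMM or chromosome 11 totals. Elements called were 1 with DESeq2, the replicate block or without erythroid technical replicates 1, 0 with chromosome 11 totals (0 at an unadjusted p under 0.05 as well), 4 with pairs counted once, and 1 to 3 with replicates left out. Partner bins called were 2 with DESeq2 or TMM, 4 with chromosome 11 totals, 15 with no minimum, 11 with the replicate block, 15 without erythroid technical replicates 1, 14 with the 3 kb window, and 10 to 20 with replicates left out. Shares called were 4 with pairs counted once and 1 to 3 with replicates left out; in the alpha CTCF table they were 1 to 2. The replicate block, whose numbers pair nothing, moved no other count of calls by over 1.5 times. The cause of these shifts was not tested.

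Turned in sign, with DESeq2, TMM and chromosome 11 totals in this order: Hba-x class 0.19, 0.34 and 0.10; gap to +44 0.28, 0.43 and 0.27; gap to R1 0.040, 0.19 and 0.038; off chromosome 11 0.29, 0.45 and 0.26. With chromosome 11 totals, the elements CTCF +44, Hba-a2, Hba-x and Rm turned to 0.51, 0.71, 0.10 and 0.29. CTCF +44 was 0.72 in the 3 kb window and Hba-a2 0.55 with pairs counted once. The adult class level was -0.16 without erythroid technical replicates 1. The +44/+48 share was -0.021 with all pairs as denominator and -0.17 without those libraries. The share within the window was 0.019 with the replicate block and 0.64 (called) with pairs counted once, and that beside R2 -0.20 with pairs counted once. In the alpha CTCF table the +44/+48 class was 0.027 with DESeq2 and 0.049 with the block. The +44/+48 ratio to the upstream neighbour was 0.16 without ES replicate 1 technical replicate 3, and the adult ratio to the downstream neighbour 0.25 with pairs counted once.

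With replicates left out, the ranges that crossed 0 were -0.81 to 0.19 (element CTCF +44), -0.046 to 1.34 (Hba-a1), -0.34 to 0.85 (R4), -0.15 to 0.53 (adult class level), -0.40 to 0.38 and -0.54 to 0.35 (adult ratios to the downstream and upstream neighbour), -0.55 to 0.31 (alpha CTCF, +44/+48), -0.33 to 1.17 (+44/+48 share), -0.17 to 0.28 (share within the window), -0.10 to 0.25 (beside R2), -0.30 to 0.11 (rest of chromosome 11) and -0.40 to 0.15 (+44/+48 ratio). Depth limits the +44/+48 values, which rest on 15 to 247 counts a replicate.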
